A study of Gallus gallus with 9 samples.

Results

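A group of 8 extracellular matrix genes was followed in cells sorted from the chicken embryonic gonad: the small leucine-rich proteoglycan genes DCN, LUM, KERA, FMOD, PRELP, OGN and EPYC, and POSTN, which encodes periostin. They were chosen by name, with earlier results of these data known. All 8 were measured, among 13009 genes, by 9 probe sets, and where a gene had more than 1 probe set the one with the highest mean over all arrays stood for it. The cells came from gonads of 6.5-day WL embryos and were separated by magnetic-activated sorting (MACS), which gave 3 PGC and 6 GSC preparations, each hybridised as total RNA to its own Affymetrix GeneChip Chicken Genome Array. PGC commonly stands for primordial germ cell, whereas the labels do not write out GSC, and they name neither the sorting antigen nor the sex of the embryos. Whether the preparations of a fraction were made from different embryos is not stated, so the p-values reflect the spread between these preparations only, and that spread may be technical.

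Small leucine-rich proteoglycans are secreted proteins built of leucine-rich repeats, most of which carry chondroitin, dermatan or keratan sulfate chains. They bind fibrillar collagens, limit the thickness of the fibrils and hold growth factors such as TGF-beta in the matrix. Periostin is a matricellular protein of fasciclin domains, made mainly by mesenchymal cells, that binds integrins and helps collagen to be processed and cross-linked. These genes are best known from connective tissue such as tendon, cornea, cartilage and skin.

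The values are log2 expression values that the authors made by RMA, which corrects background, normalizes between arrays and summarises each probe set. Reporter probe sets that match no chicken gene had a 95th percentile of 2.88, called the reporter mark here, below which a level is close to what the array gives without a target. Any GSC array correlated with another at 0.987 to 0.995 over all probe sets, and any PGC array with another at 0.974 to 0.990, while PGC replicate 3 stood nearest the GSC arrays (0.956 to 0.969). All 10 germ cell markers were higher in PGC, and 12 of 14 gonadal somatic cell markers were lower and 0 higher. The germ cell list averaged 4.12 to 4.41 (log2) in GSC against 7.61 to 8.43 in PGC, and its members differed in GSC: TDRD5 lay below the mark on all 6 GSC arrays, and SALL4 and ASZ1 on 1 each. DDX4, a germ cell RNA helicase, measured 4.59 ± 0.19 (SD, n = 6) in GSC and DAZL, a germ cell RNA-binding protein, 6.36 ± 0.16. GATA4, a gonadal somatic marker, measured 2.6, 3.57 and 5.44 in PGC replicates 1, 2 and 3, and 6.25 to 6.57 in GSC. LHX9, another, measured 5.45, 5.82 and 6.77 in PGC replicates 1, 2 and 3, and 8.01 to 8.38 in GSC.

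In the PGC fraction 5 of the 8 genes were lower (limma, adjusted p under 0.05 over all genes), 0 were higher and 3 did not pass. Over all genes 19.5% were called lower and 22.5% higher. DCN, LUM, OGN and POSTN fell by about 2 log2 units or more and their 3 PGC arrays lay below all 6 GSC arrays, a pattern that 16.7% of all genes showed. FMOD was called lower near the reporter mark, where its fall cannot be sized. KERA, EPYC and PRELP lay below the mark on every array. The median log2 difference of the 8 genes was -1.30, against -0.02 over all genes.

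**Figure D1:**
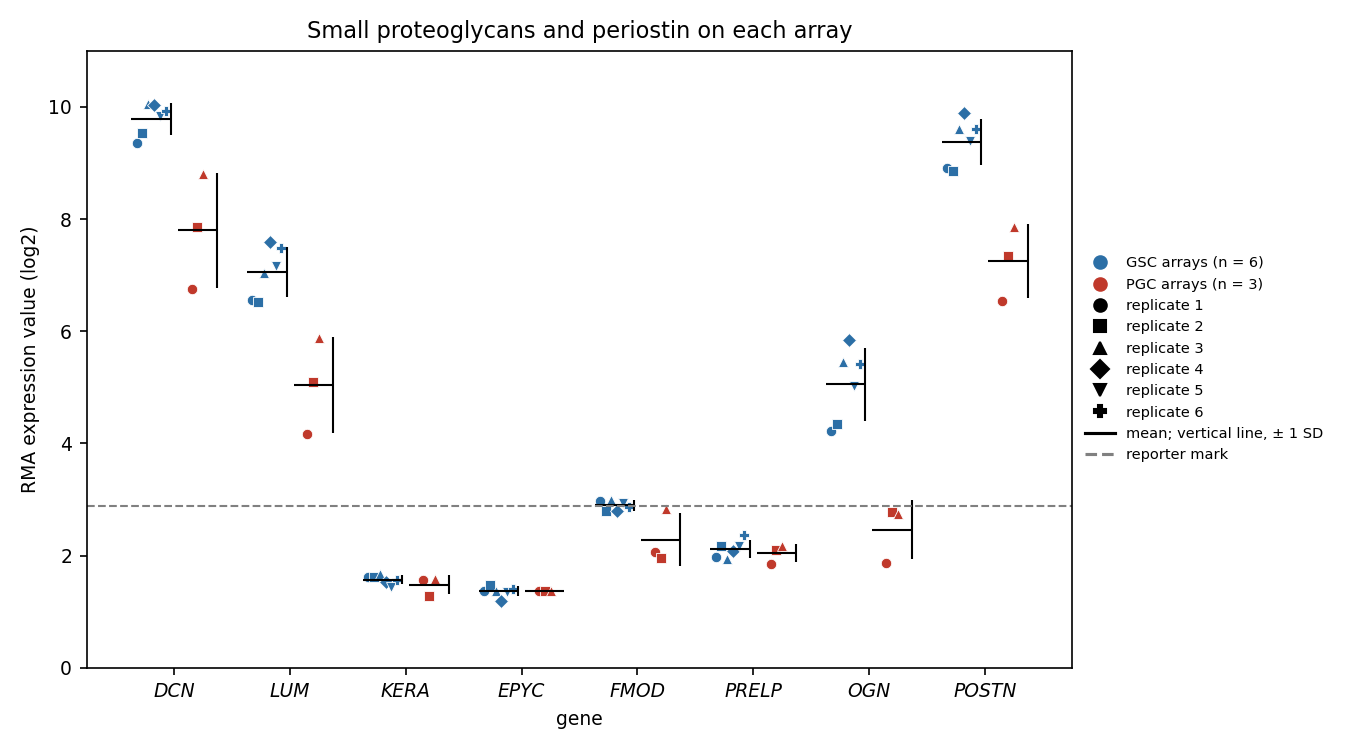
RMA expression value (log2, y axis) of the 8 genes (x axis) on each array, with GSC arrays in blue and PGC arrays in red, the replicate number as the symbol, the group mean as a horizontal line, ± 1 SD as a vertical line and the reporter mark of 2.88 dashed. DCN, LUM, OGN and POSTN show no overlap between the fractions, and KERA, EPYC and PRELP lie below the mark in both.

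DCN encodes decorin, a proteoglycan with a single chondroitin or dermatan sulfate chain that coats collagen fibrils and binds TGF-beta. Its values in PGC replicates 1, 2 and 3 were 6.75, 7.85 and 8.80 (log2), and the GSC arrays ran from 9.35 to 10.06 with a median of 9.88. Every PGC array was low, PGC replicate 1 most of all, but all lay far above the reporter mark, so decorin signal was present in both fractions. The PGC mean was 7.80 ± 1.03 (SD, n = 3) and the GSC mean 9.79 ± 0.29 (SD, n = 6), 3.97-fold apart, with a log2 difference of -1.99 ± 0.35 (SE, limma adjusted p = 0.000824). The distance of the single PGC arrays from the GSC mean was uneven, at 3.04, 1.94 and 0.99 log2 units for replicates 1, 2 and 3. The SD was 3.59 times as large in PGC as in GSC, where the median ratio over genes with a mean above the mark was 1.54, so the SE, which limma shares between the groups, is understated for DCN. The ratio was 5.16 for FMOD, 1.91 for LUM and 1.60 for POSTN. The same thus holds for FMOD above all, and to a lesser degree for LUM and POSTN. It also holds for genes named further on that spread more in PGC, such as AGRN (SD 0.57 in PGC, 0.04 in GSC) and COL6A3 (1.08 and 0.18). In bulk fractions such as these, fewer cells of a type and less RNA per cell cannot be told apart.

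LUM encodes lumican, a keratan sulfate proteoglycan that spaces collagen fibrils and is needed for corneal transparency in the mouse. PGC replicates 1, 2 and 3 measured 4.17, 5.10 and 5.88, and GSC ran from 6.52 to 7.58 with a median of 7.10. The fractions did not overlap, with a gap of 0.64 log2 units between the highest PGC and the lowest GSC array. LUM was 4.02-fold lower in PGC (log2 difference -2.01 ± 0.34 SE, limma adjusted p = 0.000737).

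KERA, the gene of keratocan, a close relative of lumican known from the cornea, measured 1.57, 1.28 and 1.59 in PGC replicates 1, 2 and 3 and 1.44 to 1.67 in GSC (median 1.60). All 9 arrays were below the mark and the fractions overlapped. Its log2 difference of -0.09 (95% confidence interval -0.32 to 0.13) did not pass (limma adjusted p = 0.499). EPYC, the gene of epiphycan, a dermatan sulfate proteoglycan of growth cartilage, was at the same value of 1.38 on all 3 PGC arrays, and in GSC it ran from 1.20 to 1.47. That one value was shared by 5 of the 9 arrays, and 36 genes had an identical value on all 3 PGC arrays, 29 of them with a mean below the mark. The log2 difference of EPYC was 0.01 (95% confidence interval -0.19 to 0.21, limma adjusted p = 0.932). At levels this low RMA compresses differences, so these intervals do not bound a change in RNA.

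FMOD encodes fibromodulin, a keratan sulfate proteoglycan that shares a collagen-binding site with lumican. The values of PGC replicates 1, 2 and 3 were 2.07, 1.96 and 2.83, and GSC ran from 2.79 to 3.00 with a median of 2.91. PGC replicate 3 lay within the GSC range, the other PGC arrays lay below it, and 3 of the 6 GSC arrays were themselves below the mark. FMOD was called lower (log2 difference -0.61 ± 0.17 SE, limma adjusted p = 0.0128), but the call was lost without PGC replicate 1 (-0.50, limma adjusted p = 0.0685) or PGC replicate 2 (-0.44, limma adjusted p = 0.0722), in a range of 3.342e-05 to 0.0831 over 16 alternatives. With PGC values set at the mark, the fold is at least 1.01, so these arrays give no size for it.

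PRELP encodes a basic, collagen- and heparin-binding member of the family that anchors basement membranes to connective tissue. It measured 1.86, 2.11 and 2.18 in PGC replicates 1, 2 and 3 and 1.94 to 2.36 in GSC (median 2.13). The fractions overlapped below the mark, and the log2 difference was -0.07 (95% confidence interval -0.33 to 0.19, limma adjusted p = 0.671).

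OGN encodes osteoglycin, also called mimecan, a keratan sulfate proteoglycan of bone and connective tissue that takes part in collagen fibril formation. PGC replicates 1, 2 and 3 measured 1.86, 2.78 and 2.75, all below the mark, and GSC ran from 4.22 to 5.85 with a median of 5.22. The gap between the fractions was 1.44 log2 units, the widest of the 8 genes. OGN was at least 4.50-fold lower in PGC (fitted log2 difference -2.59 ± 0.36 SE, limma adjusted p = 0.000178). Unlike DCN, it spread at least as much among GSC arrays (SD 0.65) as among PGC arrays (SD 0.52), where values below the mark are compressed.

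POSTN had a pair of probe sets, which moved alike. The brighter one measured 6.54, 7.35 and 7.85 in PGC replicates 1, 2 and 3 and 8.86 to 9.89 in GSC (median 9.50), with a gap of 1.01 log2 units between the fractions. It was 4.38-fold lower in PGC (log2 difference -2.13 ± 0.29 SE, limma adjusted p = 0.000166). The other probe set of POSTN measured 5.23, 5.98 and 6.91 in PGC and 7.31 to 8.61 in GSC, a log2 difference of -1.97 ± 0.36 (SE, limma adjusted p = 0.00182 over all probe sets). Both were lowest in PGC replicate 1 and highest in GSC replicate 4. Periostin signal, like decorin signal, stayed well above the mark in every PGC array.

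**Figure D2:**
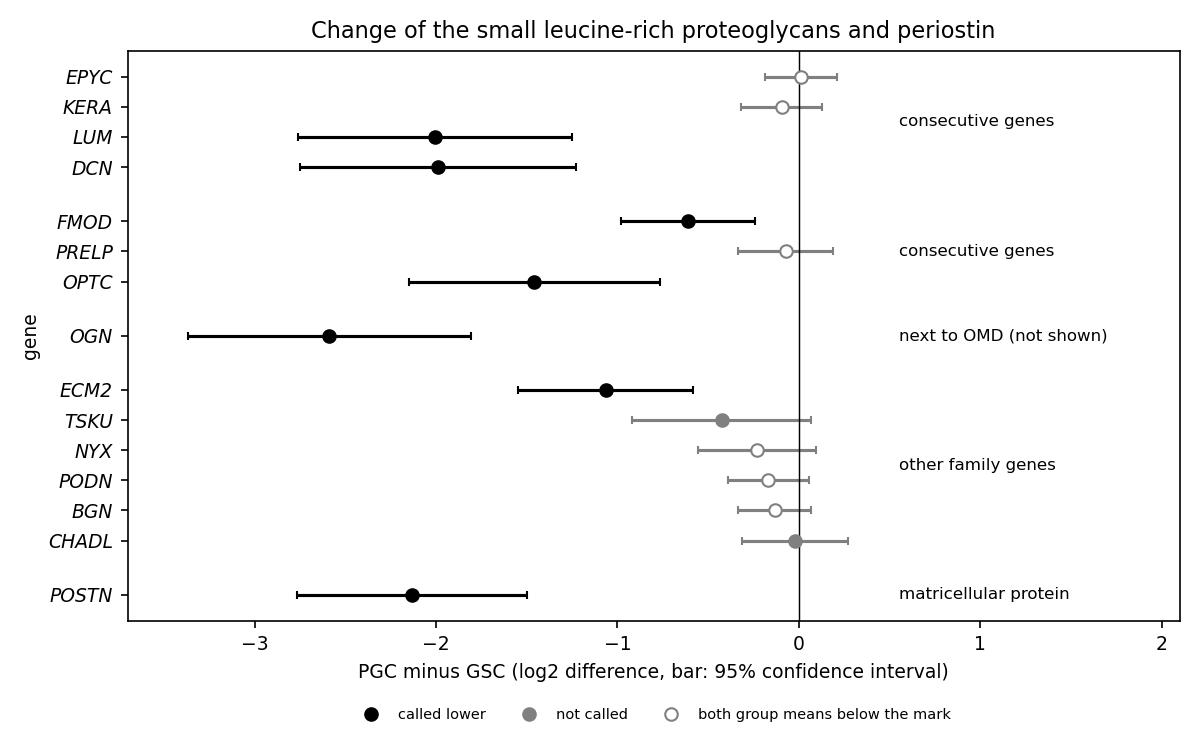
Log2 difference PGC minus GSC (x axis, points) with its 95% confidence interval (bars) for the 8 genes and 7 further members of the small leucine-rich proteoglycan family (y axis), grouped by gene order in the RefSeq gene table. LUM and DCN fell by 2.01 and 1.99 while the neighbouring EPYC and KERA (open symbols, below the mark in both groups) did not pass, and OPTC fell by 1.46.

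The family lies in runs of adjacent genes, a feature that the choice by name did not use. In the RefSeq gene table of the current chicken reference assembly, used here for gene order only, EPYC, KERA, LUM and DCN are consecutive protein-coding genes, FMOD, PRELP and OPTC are another such run, and OGN lies next to OMD, which is not analysed here. Within the first run, LUM and DCN were above the mark on all 9 arrays and fell, whereas EPYC and KERA were below it on all 9. Within the second, OPTC, the gene of opticin, a member known from the vitreous of the eye, was above the mark on all 9 arrays, with PGC replicates 1, 2 and 3 at 4.54, 4.42 and 6.03 and GSC arrays at 6.11 to 6.81. OPTC was 2.75-fold lower in PGC (log2 difference -1.46 ± 0.31 SE, limma adjusted p = 0.00314), and PGC replicate 3 lay just below the lowest GSC array.

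Of 7 measured family members beyond those followed here, 0 were higher and 5 did not pass, with a median log2 difference of -0.23. The remaining 2 were lower, a count near the share over all genes, 19.5%. Besides OPTC the other was ECM2, a matrix protein with leucine-rich repeats, at 2.35 ± 0.38 (SD, n = 3) in PGC, below the mark on all 3 arrays, against 3.41 ± 0.36 (n = 6) in GSC (at least 1.45-fold lower, limma adjusted p = 0.00236). BGN, the gene listed as biglycan, the nearest relative of decorin, was below the mark on all 9 arrays (1.70 ± 0.08 in PGC, 1.83 ± 0.08 in GSC). PODN and NYX were below it on all 9 as well.

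Whether the genes fell by different amounts was tested by the per-array difference of their log2 values, in 28 pairs, with a two-sided exact permutation test over all 84 assignments of the arrays to fractions and p-values adjusted over the pairs. Only DCN, LUM and POSTN were above the mark on all 9 arrays, so sizes are read for their pairs alone, and the 18 pairs that passed, each with FMOD, KERA, EPYC or PRELP in it, are not read. LUM and DCN fell by amounts that differed by 0.02 log2 units (exact p = 0.941, adjusted p = 0.941). POSTN fell by 0.12 more than LUM (exact p = 0.345, adjusted p = 0.403) and by 0.14 more than DCN (exact p = 0.464, adjusted p = 0.520). A p that misses the threshold does not show that they fell alike.

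The array-to-array pattern of DCN, LUM, OGN and POSTN was similar. PGC replicate 1 was the lowest of the PGC arrays for each of DCN, LUM, OGN and POSTN. It held this position in 30.3% of all genes and in 56.2% of the 2373 genes called lower with a mean above the mark. PRELP, below the mark on every array, had it too. OGN was below the mark on all 3 PGC arrays, so its order among them rests on compressed values. GSC replicates 1 and 2 lay below the other 4 GSC arrays for each of DCN, LUM, OGN and POSTN. That was so in 10.6% of all genes and in 18.9% of those 2373. OGN had the widest GSC range, 1.63 log2 units, with replicates 1 and 2 at 4.22 and 4.35 and the others at 5.03 to 5.85. OPTC ran the other way, with GSC replicates 1 and 2 the highest at 6.81 and 6.79.

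Some marker lists of other cells moved with these genes, and others did not. Relative to the GSC mean, the gonadal somatic cell list lay at -2.31, -1.65 and -0.66 log2 units in PGC replicates 1, 2 and 3, the endothelial list at -1.78, -0.99 and -0.47 and the fibroblast and mesenchyme list at -1.20, -0.98 and -0.60, while the germ cell list lay at 4.17, 3.97 and 3.35. PGC replicate 1, with the highest germ cell and the lowest somatic markers, was thus also the array with the lowest DCN, LUM, OGN and POSTN, and replicate 3, with the lowest germ cell markers, had the highest DCN, LUM and POSTN of the PGC arrays. This order, replicate 1 lowest and replicate 3 highest, was common. It held in 20% of all genes and in 44.1% of the 2373 genes called lower with a mean above the mark. The erythroid list had that order too, at -1.06, -0.94 and -0.28 in PGC replicates 1, 2 and 3. So had the smooth muscle list, at -0.72, -0.54 and -0.215, and the leukocyte list, at -0.63, -0.38 and -0.28. The mesonephric epithelium list went the other way, at 1.86, 2.38 and 2.34 in PGC replicates 1, 2 and 3. The mean of the cartilage, tendon and cornea list stayed near the GSC mean, at -0.03, 0.04 and 0.05. That mean joins 3 markers called lower with 3 called higher, and 6 of the 14 had both group means below the mark. It does not show that the single markers were unchanged. The part of other cell types in the differences of the 4 genes was not tested. In GSC replicates 1 and 2 the gonadal somatic list lay 0.19 and 0.12 below the GSC mean, and the fibroblast list at 0.01 and -0.12. On the same 2 arrays the endothelial list lay at -0.12 and -0.18 and the smooth muscle list at -0.165 and -0.088. The erythroid list lay above the GSC mean there, at 0.31 and 0.10.

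Of 12 measured fibroblast and mesenchyme markers 7 were lower and 0 higher (1 higher without PGC replicate 3), their mean level being 4.27 to 4.88 in PGC and 5.36 to 5.58 in GSC. PDGFRA, a receptor of mesenchymal cells, was at least 6.36-fold lower in PGC. Of 14 markers of cartilage, tendon and cornea 3 were lower and 3 higher (0 lower without PGC replicate 1 and 1 without PGC replicate 2), with 3.89 to 3.97 in PGC and 3.82 to 4.02 in GSC. Of 12 endothelial markers 9 were lower and 0 higher, at 3.79 to 5.10 in PGC and 5.40 to 5.76 in GSC. Of 6 smooth muscle markers 1 was lower (4 without PGC replicate 3), at 3.75 to 4.25 against 4.30 to 4.59. Beside all these lists, 19.5% of all genes were called lower and 22.5% higher. The lower counts of smooth muscle and of cartilage, tendon and cornea were near the lower share. Of 6 erythroid markers 3 were lower (5 without PGC replicate 3), at 8.23 to 9.02 against 9.13 to 9.60. Of 8 leukocyte markers 4 were lower and 1 higher, at 3.50 to 3.85 against 4.00 to 4.23, and 2 were lower if any of GSC replicates 1, 2, 3 and 6 or PGC replicates 1 and 2 was left out. Of 9 mesonephric epithelium markers 7 were higher and 2 lower (1 if any of GSC replicates 1, 2 and 6 or PGC replicates 1 and 2 was left out), at 6.37 to 6.89 in PGC against 4.29 to 4.80 in GSC.

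**Figure D3:**
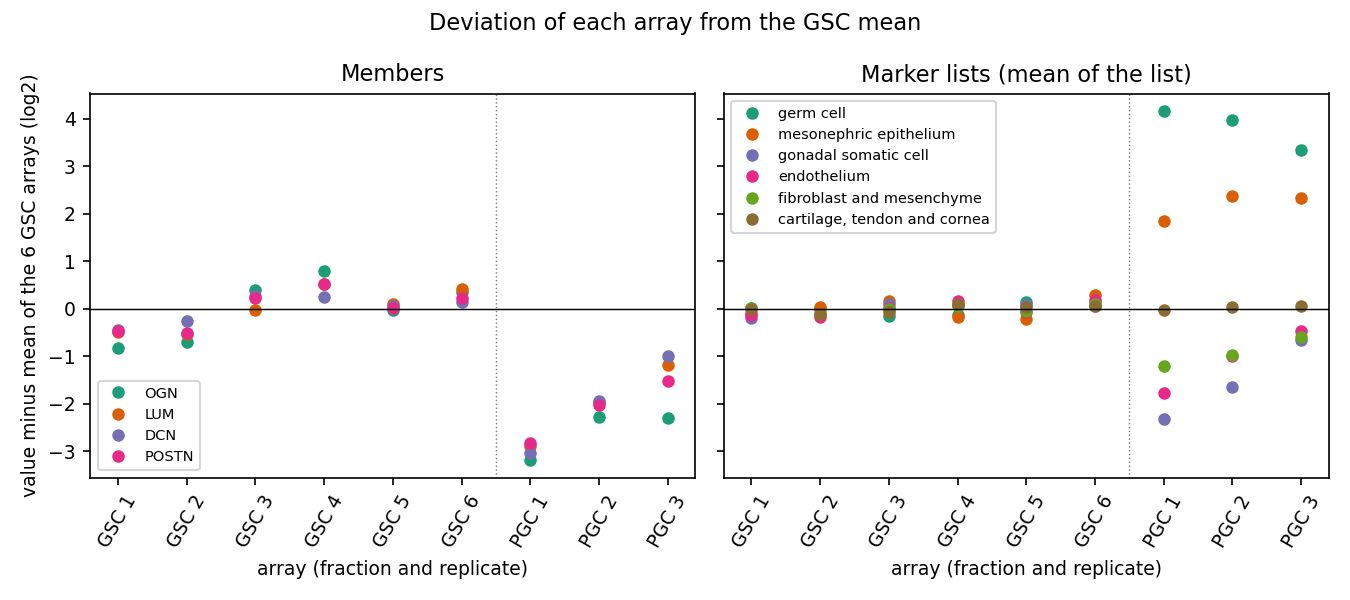
Value of each array minus the mean of the 6 GSC arrays (log2, y axis) by array (x axis), for OGN, LUM, DCN and POSTN (left) and for the mean of 6 cell type marker lists (right). In the PGC arrays the 4 genes lie 0.99 to 3.19 below the GSC mean, lowest in replicate 1, and the gonadal somatic list lies 0.66 to 2.31 below it, also lowest in replicate 1. The 3.19 belongs to OGN, which is below the reporter mark in all 3 PGC arrays, so it is not read as a size.

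Genes with the nearest array profile were found by the root mean square difference of mean-centred log2 values over the 9 arrays. PIEZO2, a mechanically gated channel, was nearest to DCN (0.05 log2 units), followed by RFTN2 (0.10) and the secreted angiopoietin relative ANGPTL1 (0.11). ABCC9, a regulatory subunit of potassium channels, was nearest to LUM (0.14), followed by POSTN (0.16) and PIEZO2 (0.18). The collectin COLEC10 (0.13), the leucine-rich repeat protein LRRC17 (0.14) and LUM (0.16) were nearest to POSTN. LRRC17 (0.23), the laminin chain LAMA4 (0.23) and the basement membrane protein FREM2 (0.25) were nearest to OGN, whose profile is cut off by the low values in PGC. HNRNPA1, PXN and AFAP1L1 (0.07 each) were nearest to FMOD, whose whole range is small. LUM and POSTN were thus in each other's nearest 3 of all 13009 genes. The distance takes in the log2 difference between the fractions, which was -2.01 for LUM and -2.13 for POSTN. Nearness beyond that difference was not tested. FREM2 was below the mark on all 3 PGC arrays.

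Genes that share a pathway with these proteoglycans numbered 119 measured ones in 7 lists, and 53 were lower and 11 higher in PGC. Over all genes 19.5% were called lower and 22.5% higher, the shares to set beside the count of each list. Collagens and genes of collagen fibril assembly were lower in 16 of 23 members and higher in 2, with a median of -1.28. COL6A3, a chain of the microfibrillar collagen that decorin binds, fell by 1.96 ± 0.34 (SE), COL12A1, a fibril-associated collagen, by 1.85 ± 0.21, and ADAMTS3, which cleaves procollagen, by 2.06 ± 0.27. COL1A2, a chain of the main fibrillar collagen, was 3.46-fold lower. The 2 that rose were the procollagen enhancer gene PCOLCE2 (log2 difference 1.82, below the mark on all 6 GSC arrays, at least 2.03-fold) and the lysyl oxidase relative LOXL1 (0.74), and with dim genes left out of the test 1 rose.

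Genes that build chondroitin and dermatan sulfate, the chains of decorin, were lower in 7 of 25 members, higher in 3 and not called in 15, with a median of -0.11. CSGALNACT1, counted as higher, was below the mark on every array. CHSY3, a chondroitin chain polymerase, measured 2.76, 3.45 and 4.00 in PGC replicates 1, 2 and 3 and 4.75 to 5.41 in GSC, at least 3.05-fold lower (limma adjusted p = 0.000194). CHST15, a chondroitin sulfotransferase, fell by 1.22 ± 0.17 (SE), and B3GALT6, which builds the linker between chain and core protein, rose by 1.26 ± 0.20. The epimerases that turn chondroitin into dermatan sulfate, named here after their values were seen, moved in opposite directions. DSE measured 4.79 to 5.02 in PGC and 5.86 to 6.17 in GSC (log2 difference -1.09 ± 0.11 SE, limma adjusted p = 1.819e-05), and DSEL 5.18 to 5.78 in PGC and 4.06 to 4.60 in GSC (1.17 ± 0.16 SE, limma adjusted p = 0.000144). Neither DSE nor DSEL overlapped between the fractions.

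Genes of keratan sulfate synthesis, the chains of lumican, fibromodulin and keratocan, were lower in 2 of 13 members and higher in 3, with a median of 0.04. Both counts were near the shares over all genes, 19.5% lower and 22.5% higher. B3GNT2, which extends the poly-N-acetyllactosamine backbone, measured 7.16 to 8.07 in PGC and 5.85 to 6.57 in GSC (log2 difference 1.55 ± 0.22 SE, limma adjusted p = 0.000205). CHST2, a GlcNAc sulfotransferase, rose by 0.68 and the sialyltransferase gene ST3GAL1 fell by 0.90. Only 1 member was lower if any of GSC replicates 1, 4, 5 and 6 or PGC replicates 1 and 2 was left out.

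Other proteoglycan core proteins, a list that also holds the link protein HAPLN1, were lower in 8 of 21 members. They were higher in 1 (2 without PGC replicate 3), with a median of -0.28. GPC6, counted as lower, had both group means below the mark. TGFBR3, betaglycan, a membrane proteoglycan that presents TGF-beta, measured 2.70, 3.24 and 2.85 in PGC replicates 1, 2 and 3 and 4.75 to 5.57 in GSC, at least 4.40-fold lower (limma adjusted p = 5.057e-06). AGRN, the heparan sulfate proteoglycan agrin, fell by 1.32 ± 0.19 (SE) and HAPLN1, which links hyaluronan to large proteoglycans, by 1.29 ± 0.29. SPOCK1, a testican, was the 1 that rose (1.19 ± 0.12 SE), and is named here after its value was seen.

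Relatives and partners of periostin were lower in 8 of 13 members and higher in 1, with a median of -0.56. TGFBI, its closest relative, measured 6.00 to 6.22 in PGC and 6.90 to 7.40 in GSC, a 1.92-fold difference (limma adjusted p = 0.000168), and is named here after its value was seen. ITGAV, the alpha-v integrin subunit of periostin receptors, fell by 1.42 ± 0.17 (SE), and TWIST2, a mesenchymal transcription factor below the mark in 2 of 3 PGC arrays, was at least 2.64-fold lower. CCN3, a matricellular protein, rose by 1.46 ± 0.30 (SE), and its PGC arrays (5.50 to 6.40) lay above all GSC arrays (3.67 to 5.16).

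Binding partners of the small proteoglycans were lower in 10 of 17 members and higher in 1 (2 without PGC replicate 2), with a median of -0.49. TGFBR2 and LRP1, counted as lower, had both group means below the mark. CCN2, a matricellular target of TGF-beta that decorin binds, fell by 1.56 ± 0.23 (SE) and KDR, a vascular growth factor receptor also in the endothelial list, by 1.50 ± 0.24. ERBB4, a receptor kinase of the EGF receptor family, measured 6.87, 7.38 and 7.63 in PGC replicates 3, 2 and 1 and 4.88 to 5.24 in GSC, and rose 4.66-fold (limma adjusted p = 1.977e-06). The lists were counted only, and over all genes 19.5% were called lower and 22.5% higher.

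**Figure D4:**
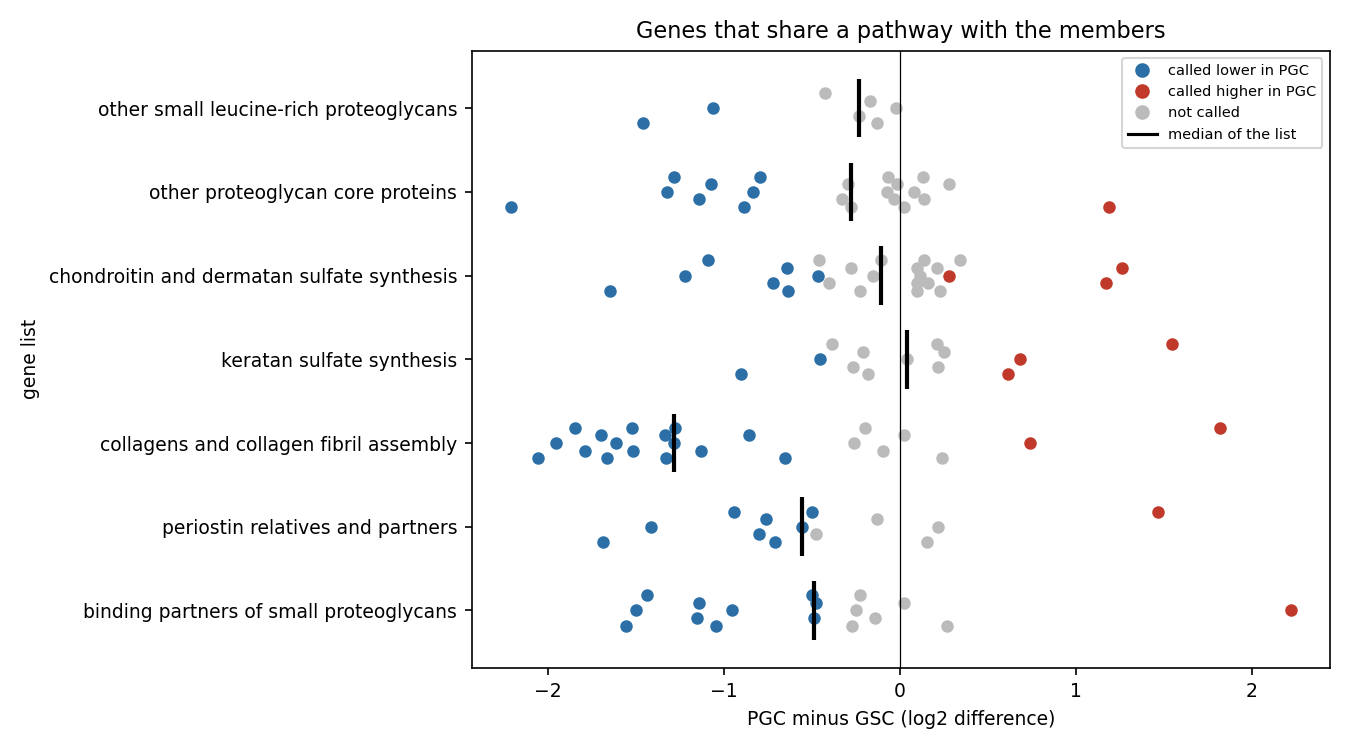
Log2 difference PGC minus GSC (x axis) of each measured gene in 7 lists (y axis), in blue where called lower in PGC, red where called higher and grey where not called, with the median of the list as a black line. The collagen list has its median at -1.28, and the keratan sulfate list at 0.04.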

How the data were processed

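The authors deposited log2 values of expression for every probe set on every array. Per the submitters' processing notes these are RMA values, with no version named. The log2 scale was taken from the range of the values, since array medians lay between 3.03 and 3.12. Of 38535 probe sets, 96 AFFX controls were left out and 38439 tested. Symbols came from the platform annotation, which gave 1 symbol to 27168 probe sets, several to 177 and none to 11094. Gene order came from the RefSeq gene table, and no coordinates are given, since no source used here gives the build behind the probe sets.

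Fits used limma 3.58.1 in R 4.3.3 (lmFit, eBayes) on fraction alone, two-sided, with Benjamini-Hochberg adjustment over 13009 genes or all probe sets, called at 0.05, with no filter on low values. The fit was tested on simulated data that gave each gene the same SD in both fractions. That test does not cover the larger spread of the PGC arrays. Pairs of genes were compared by exact permutation in Python 3.11.15. Where arrays of the dimmer group lay below the reporter mark (95th percentile of 57 reporter probe sets), those arrays were raised to the mark before the dimmer mean was taken, and the fold is given as "at least".

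The genes, lists and tests were chosen with earlier results of these data known. Named were all members, up to 3 called genes with the largest change per pathway list, 6 genes that check the fractions and the 3 nearest profiles per gene above the mark. Of 244 list symbols 210 were measured. Fractions share replicate numbers 1 to 3, and deviations of same-numbered arrays correlated at 0.19, -0.07 and 0.01, so the numbers were not taken as pairs. The number of arrays limits the precision.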

Additional observations from a re-analysis of the deposited data

How the results depend on the processing

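DCN, LUM, OGN and POSTN kept their direction and call under all 17 alternative fits of each. Their log2 differences were -2.49 to -1.46, -2.42 to -1.57, -2.75 to -2.21 and -2.43 to -1.78 in that order. Each had an unadjusted exact permutation p of 0.0119, the smallest that the 84 assignments can give. The number of the 8 genes called lower was 4 to 5 with 1 array left out (FMOD being the one lost), and 0 were called higher. FMOD was also lost with GSC replicates 1 to 3 only (-0.64, limma adjusted p = 0.0831). The replicate block on replicates 1 to 3, which share only a number, left FMOD at -0.64 (limma adjusted p = 0.0638) and also lost the calls of OPTC (-1.60) and HAPLN1 (-1.20). Replicate 1 alone of the 3 PGC arrays correlated best with its own number. Over all genes, the 2543 lower and 2923 higher calls became 1531 and 1863 with GSC replicates 1 to 3 only, and 1287 and 1845 with the replicate block, on fewer arrays. With 1 array left out they were 1914 to 2983 and 2298 to 3321. Lower and higher calls among the 119 pathway genes were then 46 to 60 and 9 to 13. Of 28 pairs, 0 to 18 passed with 1 array left out. Without any 1 PGC array 0 passed. The smallest possible exact p is then 0.0357, and the smallest adjusted p was 0.0667, 0.0625 and 0.0526 without PGC replicates 1, 2 and 3. Genes below the mark changed sign: EPYC was -0.0311 and PRELP 0.0158 with GSC replicates 1 to 3, with or without the block, and EPYC was -0.0019 with array weights. With 1 array left out EPYC ran from -0.0213 to 0.0327, PRELP from -0.1364 to 0.0239 and KERA from -0.1473 to 0.0044. The cause was not tested. PXN lost its call with the mean of its probe sets (-0.31). RMA compresses low values, which limits KERA, EPYC, PRELP, FMOD and OGN in PGC.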

Other observations

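Of 14 markers of cartilage, tendon and cornea, where small proteoglycans are best known, 3 were lower and 3 higher. Both counts are near the shares over all genes, 19.5% lower and 22.5% higher. THBS4, a thrombospondin of tendon, rose by 1.48 on the log2 scale in PGC (limma adjusted p = 0.000167). COL2A1, the main collagen of cartilage, fell by 1.22 and COL9A1 by 0.71. MATN3 and SCX, called higher, and MKX, called lower, had both group means below the reporter mark, so no size is given for them. The 3 lower calls of the list were all lost without PGC replicate 1. The cartilage proteoglycan ACAN, with a PGC mean of 2.11 ± 0.08 (SD, n = 3) and a GSC mean of 2.39 ± 0.24 (SD, n = 6), lay below the reporter mark on all 9 arrays. These genes were named after their values were seen.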
